A study of Mus musculus with 4 samples.

Results

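The genes described here encode carriers of amino acids, of their derivatives and of neurotransmitters. They were taken by symbol, as every row of the deposited table in families Slc1, Slc3, Slc6, Slc7, Slc36, Slc38 and Slc43 whose symbol ends in the member number. This gave 52 of the 18781 genes. A further 4 rows with extra letters after the number were left out, and other genes of these families are not analysed here. RNA came from mature adipocytes purified from dorsal skin (dermal) or from the inguinal fat pad (inguinal) of C57BL/6 mice at postnatal day 30. No genotype, agent or diet is given for either depot, and whether animals were pooled is not stated either. There were 2 libraries per depot, with 10127125 to 12730013 reads assigned to genes.

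Amino acids cross membranes mainly through carriers. The SLC7 light chains reach the cell surface bound to a heavy chain, SLC3A2 (4F2hc) or SLC3A1 (rBAT), and most of them exchange one amino acid for another. SLC1 carriers take up acidic or small neutral amino acids, SLC38 and SLC6 carriers use the sodium gradient, SLC36 carriers use protons, and SLC43 carriers facilitate the passage of large neutral amino acids. In adipose tissue, SLC7A10 (ASC-1) and SLC36A2 (PAT2) are known as surface markers, the former of white and the latter of brown and beige adipocytes. Several of these genes are targets of ATF4, the transcription factor that is translated when amino acids are scarce or the endoplasmic reticulum is stressed.

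Of the 52 genes, 34 reached 1 normalized CPM (reads scaled by library size and by a factor between libraries) in at least 2 libraries and were tested, and 18 did not. Among the 34, Slc38a2, Slc1a1 and Slc7a2 were higher in inguinal adipocytes and Slc7a8 was higher in dermal adipocytes (limma on log2(CPM + 0.5), two-sided, Benjamini-Hochberg adjusted p below 0.05 over 12797 genes). These 4 calls are 11.8% of the members tested, beside 16.4% of all genes tested (7.56% higher in dermal and 8.80% higher in inguinal), so the share of transporters called was not above the background. The median log2 difference, dermal minus inguinal, was 0.03 over the 34 members and 0.02 over all genes tested. Values of the depots did not overlap for 19 of the 34 members (55.9%), with dermal above for 10 and inguinal above for 9. Over all genes tested 61.8% did not overlap, 31.6% with dermal above and 30.1% with inguinal above. On reads recovered from the CPM, edgeR called the same 4 members (16.1% of all genes). DESeq2 called 6 members (15.5% of all genes), adding Slc36a2, Slc38a3 and Slc7a10 and leaving out Slc7a2.

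The libraries carried the transcripts of their labelled cell type, with 10 adipocyte markers such as Adipoq and Plin1 summing to 40796 to 46211 CPM per library. Of these 10, Plin1 (log2 difference 0.96, limma adjusted p = 0.0117) and Lep (1.16, 0.00437) were higher in dermal libraries and 8 did not pass. Markers of other cells differed between depots as well. All 10 endothelial markers were higher in inguinal libraries (summed 1595 and 2442 CPM, against 440 and 489 CPM in dermal), and all 9 macrophage markers were higher in dermal libraries (1627 and 1540 CPM, against 540 and 499 CPM). Of 7 tested brown and beige adipocyte markers, 6 were higher in inguinal libraries (65.4 and 62.0 CPM in dermal, 219.7 and 272 CPM in inguinal). Ucp1, among these, entered the test only through the inguinal libraries, where it was high. Of 5 tested keratinocyte markers, 4 were higher in dermal libraries (79.1 and 49.4 CPM, against 23.7 and 15.9 CPM). Pericyte (5 of 6) and red blood cell (3 of 4) markers were mostly higher in inguinal libraries. The 8 fibroblast markers summed to 5779 and 13364 CPM (dermal) and 3654 and 6370 CPM (inguinal), and replicate 2 was the higher in both depots. Every marker had reads in at least 1 library. The part of other cells in any difference below, of a transporter or of another gene, was not tested. This holds for the calls of Slc38a2, Slc1a1, Slc7a2 and Slc7a8 alike. In such bulk RNA fewer cells of a type and less RNA per cell cannot be told apart.

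The windows before the starts of Slc38a2 and Slc7a11 are shown because both genes are known ATF4 targets and the first carried the smallest adjusted p of the members. Each is the 250 bases before the RefSeq start, 5′ to 3′ on the gene's strand, which is the minus strand for both (GRCm38.p6, chr15:96699729-96699978 and chr3:50443614-50443863). Capitals mark matches on either strand to TGATGNAA, the core of the amino acid response element, or to TGACNNNGC, the core of the antioxidant response element. The cores do not overlap each other in these windows.
Slc38a2: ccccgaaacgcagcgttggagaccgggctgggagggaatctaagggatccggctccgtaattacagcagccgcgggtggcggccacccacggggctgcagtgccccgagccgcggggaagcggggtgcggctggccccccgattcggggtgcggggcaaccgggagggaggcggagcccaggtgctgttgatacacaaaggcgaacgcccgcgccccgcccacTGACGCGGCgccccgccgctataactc
Slc7a11: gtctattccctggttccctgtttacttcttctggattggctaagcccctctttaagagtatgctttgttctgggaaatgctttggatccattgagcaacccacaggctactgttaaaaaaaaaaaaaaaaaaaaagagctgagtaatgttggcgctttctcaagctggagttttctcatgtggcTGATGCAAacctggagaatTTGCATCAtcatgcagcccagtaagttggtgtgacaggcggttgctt
Slc7a11 held 2 matches to TGATGNAA, on the forward strand 66 to 59 bases and on the reverse strand 47 to 40 bases before the start. Slc38a2 held none to TGATGNAA and 1 to TGACNNNGC, 27 to 19 bases before the start. Of 32851 RefSeq windows of this length, 3.45% held TGATGNAA and 10.2% held TGACNNNGC. The 37 members with a window had 57 windows, of which 3 (5.26%, of Slc7a11 and Slc7a7) held the former and 8 (14%, of 7 genes) the latter. A match describes letters and is not evidence of binding. The lack of a match does not show that a gene has no such element, since bases outside these windows were not searched.

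Most of the transporter RNA came from a few genes. Per kilobase of annotated exon, Slc1a5 led with a mean of 259 CPM per kb over the 4 libraries, followed by Slc36a2 (116), Slc7a10 (93.8), Slc1a3 (89.0) and Slc3a2 (40.1). The 5 highest genes of each library gave 79.0% to 83.5% of its summed transporter level per kb. All 52 genes together took 0.347% and 0.367% of dermal reads and 0.315% and 0.345% of inguinal reads. The lowest tested member by this measure was Slc38a1, at 0.193 CPM per kb.

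**Figure D1:**
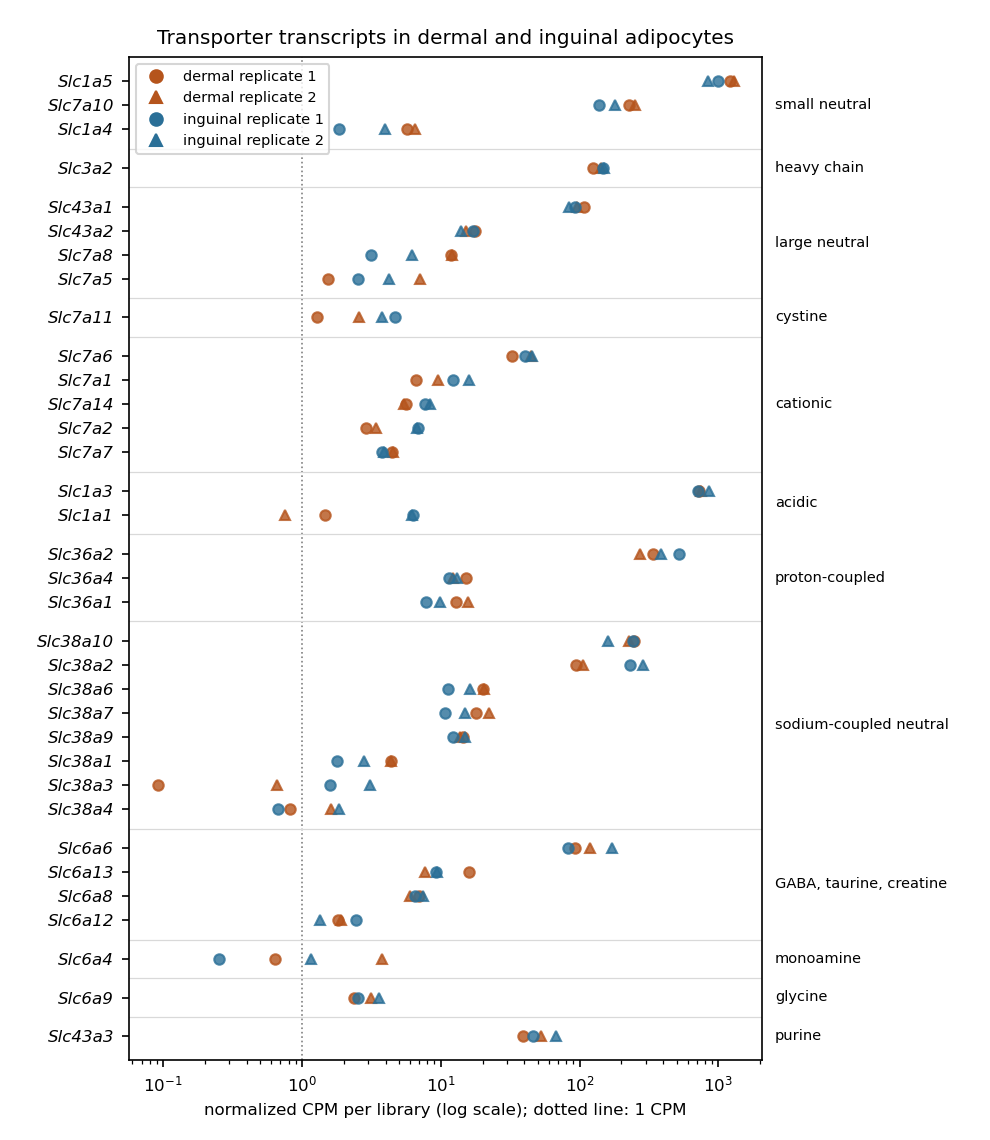
Normalized CPM (log axis) of the 34 tested transporter genes in each library, ordered by substrate group. Orange marks are dermal and blue marks inguinal libraries, circles replicate 1 and triangles replicate 2. Slc1a5, Slc1a3 and Slc36a2 lie highest, and the inguinal marks of Slc38a2 and Slc1a1 lie clear of the dermal ones.

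Exchangers of small and neutral amino acids were the most abundant substrate group and showed no call. Slc1a5, which encodes the glutamine exchanger ASCT2, had dermal values of 1202 and 1284 CPM and inguinal values of 991 and 847 CPM. Both dermal values lay above both inguinal ones, with a log2 difference of 0.44 (95% interval 0.06 to 0.82) that did not pass (adjusted p = 0.113). Slc7a10, the white adipocyte marker that exchanges glycine, serine, alanine and cysteine, reached 226 and 249.6 CPM in dermal libraries, against 138 and 179 CPM in the inguinal ones. Here too the depots did not overlap, and the log2 difference was 0.60 (95% interval 0.20 to 0.99). It did not pass in the limma fit (adjusted p = 0.0543) and passed with DESeq2 (0.0417), with quantile normalization (0.0352) and without inguinal replicate 2 (0.00574). Slc7a10 overlaps Lrp3 on the opposite strand, and Lrp3 measured 7.37 to 10.1 CPM. Slc1a4, the related serine and alanine exchanger ASCT1, was low, at 5.73 and 6.55 CPM (dermal) and 1.86 and 3.97 CPM (inguinal) (log2 difference 1.03, adjusted p = 0.0939). It passed only without inguinal replicate 2 (0.00833) among the libraries left out in turn. All 3 estimates of the group were positive, as were 6579 of the 12797 estimates over all genes tested. Its summed level was 396 and 428 CPM per kb in dermal and 303 and 289 CPM per kb in inguinal libraries, a description without a test.

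The heavy chain gene Slc3a2 stood at 126 and 142 CPM in the dermal libraries and at 148 and 151 CPM in the inguinal libraries. The inguinal values lay just above the dermal ones, and the log2 difference was -0.16 (95% interval -0.47 to 0.15, adjusted p = 0.436). Slc3a1, the heavy chain of kidney and gut, had 10 reads in dermal and 5 in inguinal libraries. Set against the heavy chain, the 6 light chains known to bind it (Slc7a5, Slc7a6, Slc7a7, Slc7a8, Slc7a10 and Slc7a11) summed to 118 and 134 CPM per kb in dermal and to 76.9 and 98.4 CPM per kb in inguinal libraries. The light chain sum was therefore 3.33 times the level of Slc3a2 per kb in both dermal libraries, and 1.84 and 2.30 times in the inguinal ones. Slc7a10 alone gave 84.8% to 90.4% of that sum. These sums were not tested.

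Among carriers of large neutral amino acids, Slc7a8 was the member higher in dermal adipocytes. This gene encodes the light chain LAT2, which exchanges large and small neutral amino acids, and lies on chromosome 14, 54722209 to 54781946 (GRCm38). It had dermal values of 11.92 and 12.05 CPM and inguinal values of 3.12 and 6.20 CPM. The dermal libraries nearly coincided, and the inguinal ones lay below them and apart from each other. Macrophage and keratinocyte markers were higher in the dermal libraries too. The log2 difference was 1.34 (SE 0.31, limma adjusted p = 0.0345), and it was 0.90 without inguinal replicate 1 and 1.78 without inguinal replicate 2. Its call ended without dermal replicate 1 (0.0957), without dermal replicate 2 (0.0960), without the expression filter (0.0626) and without the intensity trend (0.0541). Slc7a5, the light chain LAT1 of growing cells, was low and varied within depots, at 1.55 and 7.12 CPM (dermal) and 2.53 and 4.27 CPM (inguinal). Its log2 difference of 0.05 had a 95% interval of -1.41 to 1.51 (adjusted p = 0.962), too wide to tell. The more abundant carriers of this group belong to another family. Slc43a1, which encodes the facilitated carrier LAT3, reached 108 and 95.8 CPM in dermal libraries, against 92.1 and 83.4 CPM in the inguinal ones (log2 difference 0.21, 95% interval -0.11 to 0.54, adjusted p = 0.319). Slc43a2 (LAT4) ranged from 14.0 to 17.7 CPM with overlapping depots.

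**Figure D2:**
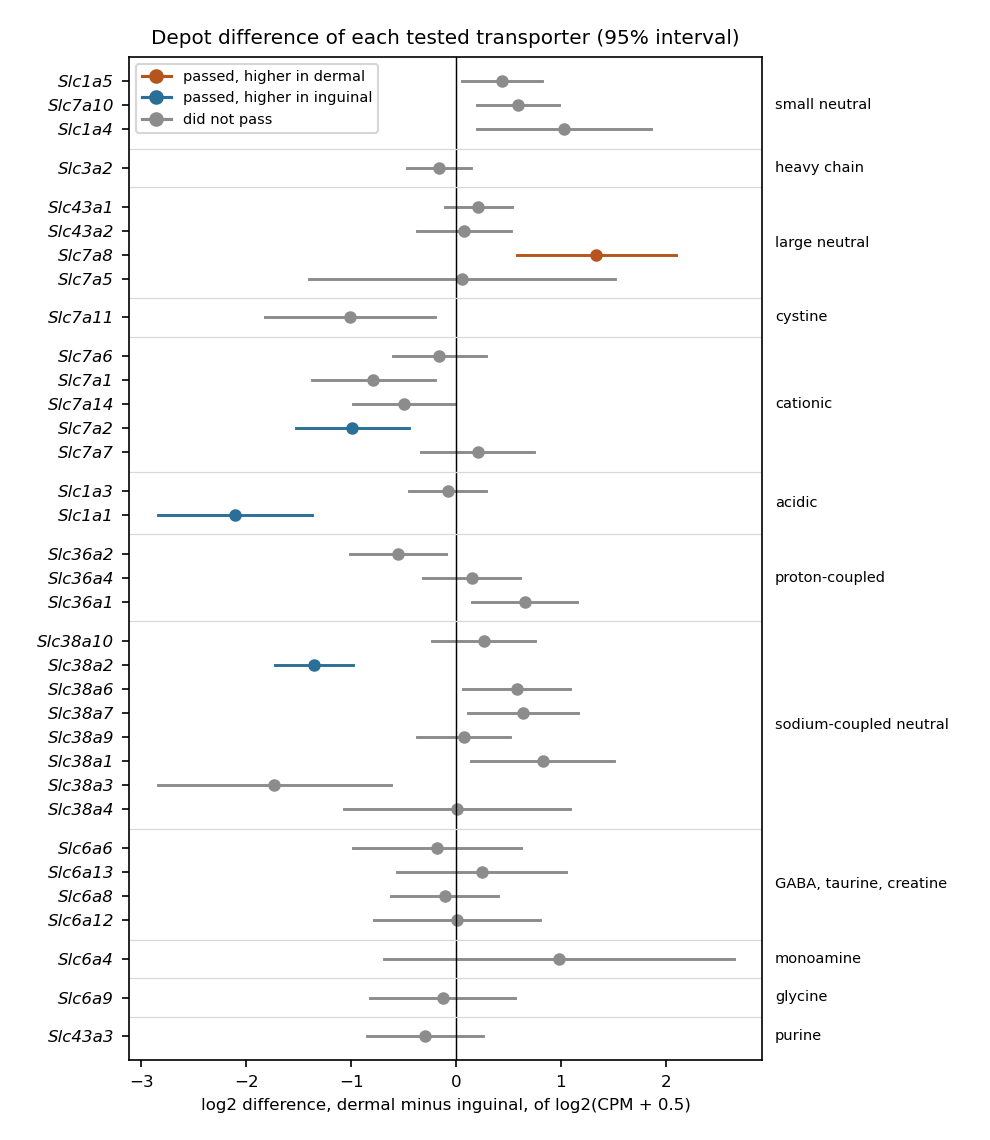
Log2 difference, dermal minus inguinal, of log2(CPM + 0.5) for the 34 tested transporter genes, with 95% intervals from limma. Slc7a8 (orange, 1.34) passed as higher in dermal, and Slc38a2 (-1.35), Slc1a1 (-2.11) and Slc7a2 (-0.99), in blue, passed as higher in inguinal. Grey genes did not pass.

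Carriers of cystine and of cationic amino acids included the next inguinal call. Slc7a2, which encodes the arginine and lysine carrier CAT2, lies on chromosome 8, 40862396 to 40922308. It stood at 2.91 and 3.42 CPM in the dermal libraries and at 6.84 and 6.69 CPM in the inguinal libraries, from 68 and 150 reads. Both inguinal values lay above both dermal ones, with a log2 difference of -0.99 (SE 0.22, limma adjusted p = 0.0307). The size held with libraries left out (-1.09 to -0.89), but with 3 libraries none of these fits passed (adjusted p from 0.0512 to 0.173). DESeq2 (0.0772), the fit without a filter (0.0671) and scaling to equal totals (0.0516) did not pass either. Slc7a1, the widespread arginine carrier CAT1, had dermal values of 6.64 and 9.49 CPM and inguinal values of 12.3 and 16.1 CPM (log2 difference -0.79, adjusted p = 0.0771), a difference that passed without inguinal replicate 1 (0.0316). The other tested cationic carriers did not pass. Slc7a6 and Slc7a7, the y+L light chains that exchange cationic for neutral amino acids, had log2 differences of -0.16 and 0.21, and Slc7a14 had -0.50. Slc7a3 (CAT3) had 9 dermal and 5 inguinal reads, Slc7a15 had 1 inguinal read, and Slc7a4, whose substrate is not established, had 18 dermal and 5 inguinal reads. Slc7a11, the cystine and glutamate exchanger xCT whose promoter window is shown above, reached 1.27 and 2.56 CPM in dermal libraries, against 4.64 and 3.78 CPM in the inguinal ones. Its depots did not overlap, yet with 41 and 94 reads the log2 difference of -1.01 (95% interval -1.82 to -0.20) did not pass (adjusted p = 0.0934).

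Carriers of acidic amino acids held the member with the largest log2 difference of those called. Slc1a1 encodes EAAT3, a carrier of glutamate, aspartate and cysteine known from neurons and kidney, and lies on chromosome 19, 28835049 to 28913960. It stood at 1.46 and 0.759 CPM in the dermal libraries and at 6.33 and 6.20 CPM in the inguinal libraries, from 24 and 139 reads. Dermal replicate 2 lay below 1 CPM, so the gene met the expression filter through the inguinal libraries, where it was high. Both inguinal values exceeded the higher dermal one by a wide margin, with a log2 difference of -2.11 (SE 0.30, limma adjusted p = 0.00788). It passed under all 14 other settings, with -2.43 to -1.79 when libraries were left out in turn. The opposite-strand gene 4430402I18Rik, which overlaps it, ranged from 6.55 to 11.2 CPM with overlapping depots (log2 difference -0.24, adjusted p = 0.595). The abundant gene of the group was Slc1a3, the glial glutamate carrier EAAT1 (GLAST), at 729 and 746 CPM (dermal) and 716 and 848 CPM (inguinal). Its depots overlapped, and the log2 difference was -0.08 (95% interval -0.44 to 0.28, adjusted p = 0.756). The glial and neuronal carriers Slc1a2 and Slc1a6 had at most 2 reads per depot, and the retinal carrier Slc1a7 had 11 dermal and 2 inguinal reads. Slc7a13, a carrier of aspartate and glutamate known from kidney, had 3 dermal and 7 inguinal reads.

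Proton-coupled carriers were led by Slc36a2 (PAT2), a carrier of glycine, alanine and proline. It had dermal values of 338 and 273 CPM and inguinal values of 516 and 386 CPM. The lower inguinal value lay above the higher dermal one, with a log2 difference of -0.55 (95% interval -1.01 to -0.10) that did not pass (adjusted p = 0.0993). It passed without inguinal replicate 2 (0.0136) and, at the threshold, with DESeq2 (0.04997). The brown and beige marker Ucp1, for comparison, measured 0.0910 and 0 CPM (dermal) and 26.4 and 61.6 CPM (inguinal). Slc36a2 and Slc36a1 lie next to each other on chromosome 11, at 55158470 to 55185077 and 55204350 to 55236330, on opposite strands. Slc36a1, the lysosomal and plasma membrane carrier PAT1, had the opposite sign, at 12.8 and 15.7 CPM (dermal) and 7.85 and 9.89 CPM (inguinal) (log2 difference 0.66, adjusted p = 0.0825). It passed without inguinal replicate 2 (0.0383). Slc36a4 (log2 difference 0.15, adjusted p = 0.642) overlapped between depots, and Slc36a3 had 2 reads.

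The sodium-coupled neutral carriers held the clearest call. Slc38a2 encodes SNAT2, a carrier of alanine, serine and glutamine that cells are known to induce on amino acid withdrawal and on hyperosmotic stress, and lies on chromosome 15, 96687392 to 96699730. It reached 94.5 and 106 CPM in dermal libraries, against 229.5 and 287 CPM in the inguinal ones, from 2156 and 5677 reads. Both inguinal values lay far above both dermal ones. Endothelial and brown and beige markers were higher in the inguinal libraries too, with the sums given above. The log2 difference was -1.35 (SE 0.15, limma adjusted p = 0.00378), and it passed under all 14 other settings, from -1.51 to -1.19 with libraries left out. Slc38a1 and Slc38a4 lie on either side of it on the same strand. Slc38a1 (SNAT1) stood at 4.37 and 4.36 CPM in the dermal libraries and at 1.77 and 2.81 CPM in the inguinal libraries (log2 difference 0.83, adjusted p = 0.0988). Slc38a4 (SNAT4), known from liver, overlapped between depots at 0.676 to 1.84 CPM, and Slc38a11 had 3 reads.

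Slc38a3 (SNAT3), a glutamine carrier known from liver, kidney and astrocytes, had 8 reads in dermal and 51 in inguinal libraries, or 0.0910 and 0.664 against 1.60 and 3.10 CPM. It entered the test only through the inguinal libraries. The log2 difference of -1.73 (SE 0.46) did not pass (adjusted p = 0.0511) and passed without dermal replicate 2 (0.0359) and with quantile normalization (0.0339), as well as with DESeq2. The abundant Slc38a10 had dermal values of 247 and 226 CPM and inguinal values of 241 and 161 CPM, and its overlapping depots gave a log2 difference of 0.26 (adjusted p = 0.419). That difference was 0.56 and passed without inguinal replicate 1 (0.0297), and was -0.03 without inguinal replicate 2. Slc38a9, which encodes the lysosomal arginine sensor upstream of mTORC1, ranged from 12.2 to 14.9 CPM (log2 difference 0.07, 95% interval -0.37 to 0.51). Slc38a7, a lysosomal glutamine carrier, and Slc38a6 had dermal values above inguinal ones, with log2 differences of 0.64 and 0.58 that did not pass (adjusted p = 0.0991 and 0.115). Of the 8 tested members of the family, 6 had positive estimates, 2 negative ones, and 1 passed. Over all 12797 genes tested, 6579 estimates were positive and 6218 negative, and 16.4% passed.

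Carriers of GABA, betaine, taurine and creatine showed no call, and no tested member had depots that did not overlap. Over all genes tested, 61.8% had depots that did not overlap. Slc6a6, the taurine carrier TauT, reached 92.03 and 118 CPM in dermal libraries, against 82.2 and 171 CPM in the inguinal ones. In both depots replicate 2 was the higher. The log2 difference was -0.18 (95% interval -0.98 to 0.62, adjusted p = 0.747). It was -0.71 without inguinal replicate 1, where it passed (0.0196), and 0.34 without inguinal replicate 2. Slc6a8, the creatine carrier, stood at 6.92 and 5.98 CPM in the dermal libraries and at 6.50 and 7.46 CPM in the inguinal libraries (log2 difference -0.11, 95% interval -0.62 to 0.40). Slc6a13, the GABA and taurine carrier GAT2, stood at 16.02 and 7.68 CPM (dermal) and 9.20 and 9.40 CPM (inguinal), and dermal replicate 1 alone was high (log2 difference 0.25, adjusted p = 0.658). Slc6a12, the betaine carrier next to it on chromosome 6, ranged from 1.36 to 2.45 CPM, and the GABA carrier gene Slc6a11 (GAT3 in the brain) had 2 reads.

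Monoamine carriers were low in all libraries. The serotonin carrier gene Slc6a4 had dermal values of 0.637 and 3.79 CPM and inguinal values of 0.253 and 1.16 CPM, from 47 and 15 reads, with overlapping depots (log2 difference 0.98, 95% interval -0.69 to 2.65, adjusted p = 0.376). In both depots replicate 2 was the higher. Mast cells express this gene too, and their protease transcript Cpa3 reached 20.5 and 60.6 CPM in dermal libraries, against 3.29 and 8.34 CPM in the inguinal ones. The 6 mast cell markers, of which 3 were higher in dermal and 1 was higher in inguinal, summed to 72.0 and 218 CPM (dermal) and 44.5 and 52.6 CPM (inguinal). Platelet markers summed to 24.9 and 19.1 CPM (dermal) and 8.78 and 8.92 CPM (inguinal), with 1 of 3 tested higher in dermal and 2 not passing. The part of either cell type in the Slc6a4 values was not tested. The noradrenaline carrier gene Slc6a2, known from sympathetic neurons, had 19 reads in dermal and 3 in inguinal libraries and was not tested. The 6 neuron markers summed to 1.27 to 1.73 CPM, and Syt1 and Dbh had at most 1 read in any library. Slc6a9, the glycine carrier GlyT1, ranged from 2.37 to 3.59 CPM with overlapping depots. The glycine and proline carriers of synapses, Slc6a5 and Slc6a7, had 2 reads each, and the neutral carriers Slc6a14, Slc6a17, Slc6a18 and Slc6a19 had 0 to 11 reads per depot. Slc43a3, a carrier of purine bases and not of amino acids, stood at 39.2 and 52.7 CPM in the dermal libraries and at 46.3 and 67.5 CPM in the inguinal libraries (log2 difference -0.29, adjusted p = 0.423).

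**Figure D3:**
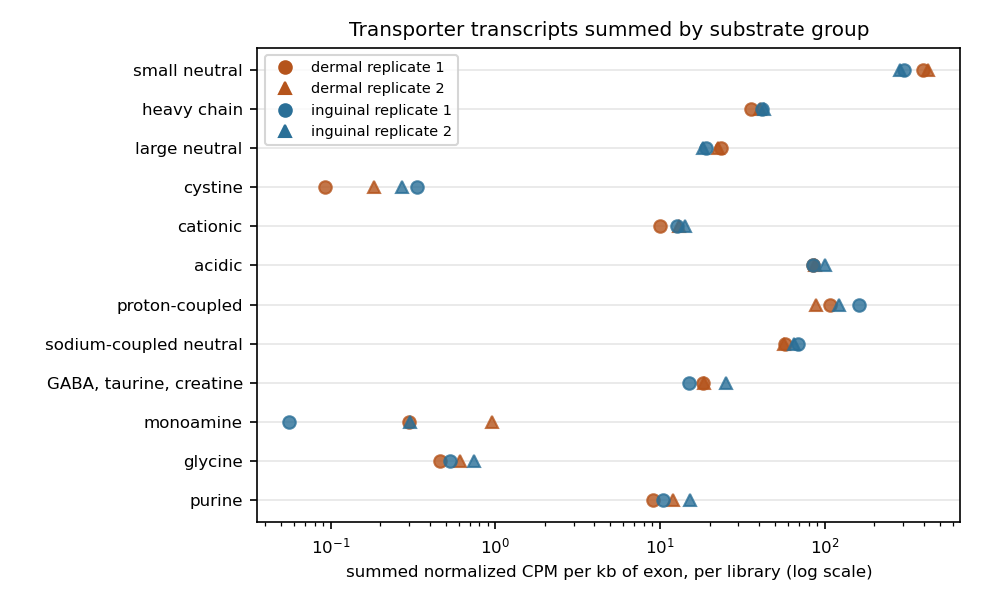
Transporter levels summed by substrate group, in normalized CPM per kb of exon (log axis), in each library. The small neutral exchangers stand at 396 and 428 in dermal and 303 and 289 in inguinal libraries, and the proton-coupled carriers at 109 and 88.6 against 162 and 122. The acidic, cationic and taurine groups overlap between depots.

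Genes of amino acid stress, breakdown and synthesis were read from the same fit in 8 lists, with 19 of 121 tested genes called (15.7%, beside the 16.4% of all genes), 7 higher in dermal and 12 higher in inguinal adipocytes. The amino acid deprivation list had 4 of 15 genes higher in inguinal and 1 higher in dermal, with a median log2 difference of -0.18, beside 0.02 over all genes tested. Those higher in inguinal were Vldlr, a lipoprotein receptor induced by ATF4 (log2 difference -1.42, limma adjusted p = 0.0150), Asns, the asparagine synthetase (-0.78, 0.0200), Ddit3, which encodes CHOP (-0.96, 0.0203), and Atf4 itself (-0.74, 0.0476). Atf4 had dermal values of 104 and 150.1 CPM and inguinal values of 198 and 221 CPM. Asns stood at 77.7 and 64.1 CPM against 131 and 114 CPM, and Ddit3 at 11.83 and 11.95 CPM against 27.0 and 20.7 CPM. In the other direction Gdf15, the stress hormone, reached 12.02 and 18.03 CPM in dermal libraries, against 2.62 and 3.78 CPM in the inguinal ones (2.06, 0.00674). The 10 genes that did not pass had estimates of both signs, such as -1.24 for Chac1 (adjusted p = 0.0708) and 0.94 for Trib3 (adjusted p = 0.282), both ATF4 targets. Calls of Atf4 (without dermal replicate 1, adjusted p = 0.274), Asns (without dermal replicate 2, 0.135) and Ddit3 (without either dermal library, up to 0.0837) ended when a library was left out, and Atf4 passed under 7 of the 14 settings. Vldlr and Gdf15 passed under all 14 settings.

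In the cysteine, glutathione and taurine list, Gclc was higher in inguinal libraries (log2 difference -1.19, limma adjusted p = 0.00353). Its values there were 84.7 and 77.2 CPM, against 34.9 and 35.7 CPM in dermal libraries. Gclc encodes the catalytic subunit of the rate-limiting enzyme of glutathione synthesis. Cbs and Ggt5, which make cystathionine and cleave glutathione conjugates, were higher in dermal (1.44 and 0.88, adjusted p = 0.0120 and 0.0172). The other 7 of the 10 tested genes did not pass. In the glutamine, glutamate, aspartate and proline list of 13 tested genes, Got1, the cytosolic aspartate aminotransferase, was higher in dermal (1.38, adjusted p = 0.0135), and 11 genes did not pass. The polyamine genes Azin1 (-1.19, limma adjusted p = 0.00309) and Odc1 (-1.05, 0.00665) were higher in inguinal libraries in the creatine and arginine list. So was Nos2, the inducible nitric oxide synthase (-1.89, 0.0254). These enzymes use arginine or its product ornithine, or regulate that use. Nos2 was low, at 1.09 and 2.37 CPM (dermal) and 5.49 and 9.99 CPM (inguinal), and Ckm, the muscle creatine kinase, was the 1 gene of that list higher in dermal (log2 difference 1.01, adjusted p = 0.0489). Ckm passed under 4 of the 13 settings that tested it, and not with edgeR or DESeq2 (adjusted p up to 0.163 with all libraries kept). It is also 1 of 6 skeletal muscle markers, all with positive estimates, 5 with dermal values above inguinal ones, and summing to 31.7 and 33.6 CPM (dermal) and 27.7 and 17.4 CPM (inguinal). The part of muscle RNA in the difference was not tested.

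In the order below, the remaining lists had 8.70%, 4.76%, 0% and 11.8% of their tested genes called. The lists above had 15.4% to 40% called, and the share over all genes tested was 16.4%. Of 23 genes of branched-chain amino acid breakdown, Dld and Hibch were higher in inguinal (-0.70 and -0.57, adjusted p = 0.0353 and 0.0304) and 21 did not pass. Of 21 tested genes of lysosomal sensing by mTORC1, Fnip2 alone passed, higher in dermal (0.57, adjusted p = 0.0403), and of 12 genes of serine and one-carbon synthesis 0 passed with limma (3 at an unadjusted p below 0.05, and 0 passed with edgeR or DESeq2). Among 17 tested carriers of other families, Mfsd12, a lysosomal cysteine carrier, was higher in dermal (1.32, adjusted p = 0.00788) and Sfxn1, a mitochondrial serine carrier, higher in inguinal (-0.72, adjusted p = 0.0261). Leaving out a single library ended the calls of Cbs, Ckm, Dld, Fnip2, Ggt5, Got1, Hibch, Nos2 and Sfxn1 (adjusted p up to 0.299, for Ckm). Azin1, Gclc, Mfsd12 and Odc1 passed under all 14 settings.

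**Figure D4:**
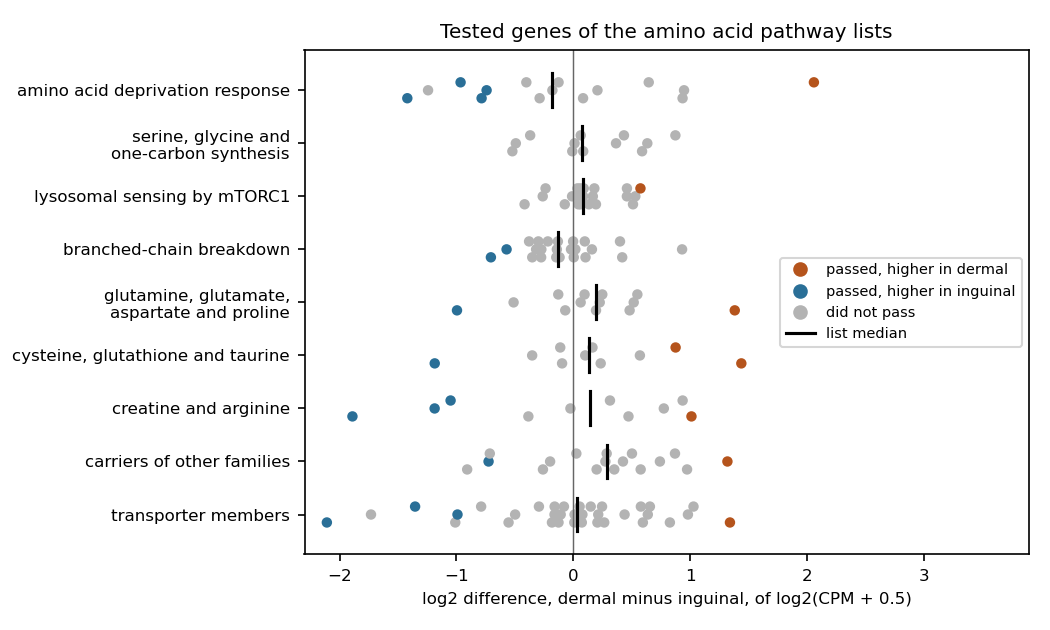
Log2 difference, dermal minus inguinal, of each tested gene in the 8 amino acid pathway lists and of the 34 tested transporters. Each point is a gene, coloured where it passed, and black bars are list medians. Passing genes lie on both sides of 0, and the medians lie between -0.18 and 0.29.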

How the data were processed

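The authors deposited 1 table of gene-level signal values for 4 RNA-seq libraries. Its header gives no unit. The columns sum to 960745 to 1074951, and the values are whole multiples of 1 step per library in 100% of cases (tolerance 0.001 reads), which gives the reads. Scaled reads match CPM divided by trimmed mean of M values factors (0.930 to 1.04), and 1 read was worth 0.0844 to 0.0969 CPM. Per the labels' protocols, digested tissue was centrifuged, floating adipocytes were taken, and a stranded total RNA kit was used. The submitters' processing notes list mm10, edgeR, TopHat2 2.0.12, featureCounts from Subread 1.4.6 and Picard 1.127. How strand was treated in counting is not stated in the sources used, so genes with an antisense partner may share reads.

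Genes with at least 1 CPM in at least 2 libraries (12797) were tested together with limma 3.58.1 in R 4.3.3, with an intensity trend, on log2(CPM + 0.5), which understates changes of low genes. The test was checked on simulated data. As alternatives, recovered reads were tested with edgeR 4.0.16 and DESeq2 1.42.0. Labels do not call the replicates separate animals, and a p-value then covers the spread of these libraries alone, which may be technical. Positions and exon lengths are from GENCODE M21 (GRCm38), and windows before gene starts from RefSeq (GRCm38.p6). The authors' gene models may differ. Members, lists and tests were chosen with earlier results of these data known. Full values are given for members that passed, the 10 of highest mean CPM and 14 fixed genes, and in each pathway list for up to 4 genes that passed. Any other gene was picked once its values were known. The result for 1 gene of the pathway lists is not reported here.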

Additional observations from a re-analysis of the deposited data

How the results depend on the processing

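The 14 alternatives changed the pseudocount, filter, intensity trend, scaling, tool, replicate block or libraries. Over 18 transporter genes, 215 values kept direction and side of the threshold, 12 gained a call, 11 lost one and 9 changed sign. The sign changed for Slc1a3 with quantile normalization (0.0196) and equal totals (0.0033), and for Slc7a5 with quantile normalization (-0.0201). With each library left out in turn, log2 differences ran from -0.2024 to 0.0427 for Slc1a3, -0.89 to 1.0021 for Slc7a5, -0.0262 to 0.5561 for Slc38a10, -0.26 to 0.7529 for Slc6a13 and -0.7089 to 0.34 for Slc6a6. Transporters higher in dermal, 1 as reported, numbered 0 without a filter or a trend, 2 with quantile normalization or DESeq2, and 0 to 7 with libraries left out. Leaving libraries out gave 2 to 4 transporters higher in inguinal, 953 (without dermal replicate 1) to 2539 (without inguinal replicate 1) genes called of any kind, against 2094 as reported, and 2 to 16 pathway genes higher in dermal and 5 to 15 higher in inguinal. Without dermal replicate 2 the genes called numbered 992. Quantile normalization gave 11 pathway genes higher in dermal. With equal totals the median log2 difference of all genes was 0.10, against 0.02 as reported.

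The difference between replicates 1 and 2 correlated between the depots (0.46 across genes). With 2 libraries per depot this is a single correlation, and swapping the numbers in 1 depot makes it -0.46. Nothing says that a number marks a shared animal or day. With the number as a replicate block, calls rose to 4726 genes, 9 transporters higher in dermal and 7 higher in inguinal, and 33 and 23 pathway genes. The transporters included Slc7a10 (limma adjusted p = 0.000956), Slc36a2 (0.00176), Slc7a11 (0.0132), Slc1a5 (0.0238) and Slc6a4 (0.0325). None of these passed in the limma fit without the block. Depth limits members under 3 reads in a library (0.253 to 0.291 CPM), and 2 libraries per depot limit the rest.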
